A study of Solanum lycopersicum with 6 samples.

Results

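Chromosome 8 of tomato (Solanum lycopersicum) carried 6245 of the 80696 accessible regions called in meristem-rich inflorescences, against 73930 on the other 11 chromosomes. The members were chosen by the chromosome label alone and are all peaks that the authors' list places on chromosome 8 of build SL4.0. The interior, the long runs and the stretch of near-continuous coverage described further on were selected on peak counts, widths and gaps in the same list, so these measures are given for them as descriptions, with no test. The tissue came from the anantha-e1546 mutant in the M82 background. ANANTHA encodes an F-box protein needed for floral identity, and in its absence inflorescences keep forming meristems where flowers would arise; its locus number in the labels places the gene on chromosome 2. All 6 samples are biological replicates of this 1 genotype and tissue, with no wild type or other tissue beside them, and every sample therefore carries the mutation. The authors deposited 1 peak list for the 6 replicates, so no value below has a replicate error, and the depth per sample is unknown. The labelled tissue was not checked against marker genes, because the peaks could not be assigned to genes on this build.

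ATAC-seq uses a transposase that cuts and tags DNA where it is free of nucleosomes. In plants such DNA lies mainly at promoters, enhancers and other regulatory sequence, and a called peak marks a stretch with more cuts than its background. Tomato chromosomes have gene-rich, open arms toward both ends and a long pericentromeric interior of condensed chromatin, rich in retrotransposons and poor in genes. Each peak in the list has a width, a whole-number score that stops at 1000, and a −log10 q, in which larger values stand for stronger peaks. Both are the authors' own values and are used here only to describe peaks within this list.

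Along the 63.99 Mb from the first base to the end of its last peak, chromosome 8 had 97.6 peaks per Mb (95% exact Poisson interval 95.2 to 100.05, which covers counting error only). Peaks covered 9.85% of that span. On both measures it stood sixth of the 12 chromosomes, which ran from 81.2 peaks per Mb on chromosome 12 to 151.9 on chromosome 2. Peak width had a median of 694 bp and quartiles at 443 and 1177 bp. Their median −log10 q was 3.58, and the quartiles were 2.28 and 6.83. The score was at the cap of 1000 in 3926 peaks (62.9%), against 61.6% of the peaks of all 12 chromosomes. A q at or below 0.01 was carried by 82.9% of the peaks, against 82.4% over the 12 chromosomes. Both shares are near those backgrounds. The weakest peak had a q of 0.0962.

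The interior was taken as the series of neighbouring 1 Mb bins whose summed deficit of peaks, measured against the mean of the 12 chromosomes (103.8 per Mb), was greatest, and it reached from 4000001 to 50000000. Since peak counts chose it, its low density is a description. The first arm, of 4 Mb, held 1108 peaks or 277.0 per Mb (interval 260.9 to 293.8). The last arm, of 13.99 Mb, held 3630 peaks or 259.5 per Mb (interval 251.1 to 268.1). The interior, 71.9% of the span, held 1507 peaks, or 32.8 per Mb (interval 31.1 to 34.5), which is 24.1% of the peaks (95% Wilson interval 23.1 to 25.2). Peaks covered 26.3% of the first arm, 25.5% of the last arm and 3.66% of the interior. The arms of chromosome 8 are thus of very unequal length and of nearly equal covered share.

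**Figure D1:**
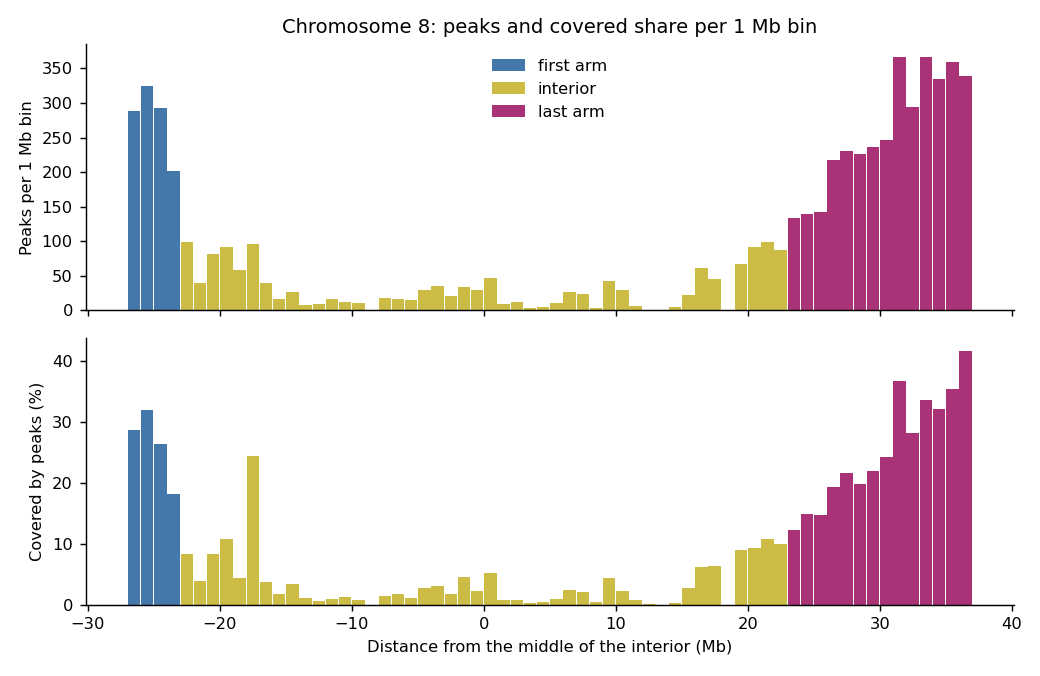
Number of peaks (top) and share of bases covered by peaks (bottom, in percent) in each 1 Mb bin of chromosome 8, plotted by distance in Mb from the middle of the interior, with colours for the first arm, the interior and the last arm. Counts climb to 367 per bin in the last arm, and 1 interior bin reaches 24.4% covered with only 96 peaks.

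The first arm ended abruptly, whereas the last arm rose toward its end in 3 levels, limits that were set after the counts were seen. In the first arm the 4 bins held 289, 324, 293 and 202 peaks, and the next bin, the first of the interior, held 99. In the last arm the 3 bins from 50000001 to 53000000 held between 133 and 143 peaks. The next 5, to 58000000, held between 218 and 246, and the 6 bins from there to the last peak between 294 and 367. The ranges of the 3 levels did not overlap, but the limits were drawn on these same counts, so this is no support for distinct levels. Densities were 138.3, 231.2 and 343.9 peaks per Mb, with Poisson intervals of 125.3 to 152.3, 218.1 to 244.9 and 329.2 to 359.0. These intervals cover counting error only and not the choice of limits. The share covered rose alongside, from 13.98% to 21.4% and 34.6%. The densest bins of the chromosome were those starting at 60000001, 58000001 and 62000001, with 367, 366 and 359 peaks.

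Peaks became fewer toward the middle of the chromosome, while their width and strength shifted little. From 10000001 to 43000000 there were 585 peaks, or 17.7 per Mb (interval 16.3 to 19.2), with a median width of 694 bp and a median −log10 q of 3.45. In the densest level of the last arm, these medians were 706 bp and 3.85. Both flanks of the interior were denser than its middle, with 77.8 peaks per Mb from 4000001 to 10000000 and 65.0 from 43000001 to 50000000. Over the 43 bins with at least 20 peaks, Spearman's rho between the number of peaks and their median width was -0.20, and with their median −log10 q it was 0.36. These are descriptions over neighbouring bins of 1 list. Median widths of these bins ran from 502 to 1022 bp, and median −log10 q from 2.43 to 4.33.

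Stretches without a call lay in the interior. The longest was 1.49 Mb, from 39544902 to 41033945. The next were 1.43 Mb, from 17575351 to 19003385, and 1.31 Mb, from 30565178 to 31874249. Gaps of over 100 kb between neighbouring peaks numbered 98 in the interior and together took 32.1 of its 46 Mb. The first arm had 1 such gap and the last arm 2. Of the 46 interior bins, 2 held no peak and 12 held fewer than 10, with a median of 23.

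Even so, close neighbours were nearly as frequent in the interior as in the arms. The gap from a peak to the next was 100 bp or less for 21.2% of gaps in the first arm, 21.2% in the interior and 22.9% in the last arm. Gaps of up to 500 bp made up 44.0%, 39.3% and 44.4%. The median gap was 1094.5 bp in the interior (95% binomial interval 898 to 1290) and 680 bp in the arms (625 to 725). The upper quartile was 11360 bp in the interior and 2641 bp in the arms. The parts thus differed mainly in their long gaps. Joining interior peaks over gaps of up to 500 bp left 914 regions, of which 62.9% were single peaks, against 57.6% of 2641 regions in the arms.

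Among interior bins at least 5 Mb from both edges of the interior, 3 had the most peaks. Bins nearer to the edges, which are left out here, held up to 99. The bin from 9000001 to 10000000 held 96 peaks. That from 43000001 to 44000000 held 62, and that from 27000001 to 28000000 held 47. The bin next to the second of these, from 44000001 to 45000000, held 46 peaks, followed by a bin with a single peak. This neighbourhood held 2 of the 5 strongest peaks of the interior, at 44864211 to 44866427 (−log10 q of 22.7, width 2217 bp) and at 44782276 to 44785057 (20.7, 2782 bp). The remaining 3 had values of 21.1 (7521793 to 7526671), 20.9 (7356704 to 7361124) and 20.7 (7941592 to 7943607).

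The strongest peaks of the interior were close in strength to those of the arms. In the first arm the highest −log10 q was 23.3, at 3806545 to 3811068, a peak of 4524 bp. Behind it came 20.2 (1742575 to 1748372), 18.9 (173713 to 175660), 18.8 (214360 to 216614) and 18.5 (3691564 to 3695115). The last arm had 23.1 at 63159274 to 63163308 and 22.8 at 58878386 to 58882578. Next came 22.4 (51144949 to 51148416), 21.2 (61263801 to 61266330) and 21.2 (52410577 to 52413781). All 15 of these peaks were at the score cap. Their widths, from 1948 to 5798 bp, were above the upper quartile of the chromosome, and none of them lay in a run of 25 kb or more.

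The median interior peak was 726 bp wide (95% binomial interval of the median 691 to 761) and the median arm peak 682 bp (669 to 703). The median −log10 q was 3.44 in the interior (3.26 to 3.64) and 3.63 in the arms together (3.52 to 3.72). It was 3.36 in the first arm and 3.70 in the last, so only the last arm exceeded the interior. In width and in −log10 q the intervals of the interior and of the arms together overlapped. They treat neighbouring peaks of 1 list as independent, so the overlap is no support for equal medians. On the other chromosomes the arms exceeded the interior in median −log10 q by 0.25 to 0.83, and chromosome 8 had the smallest difference of the 12, 0.19. Its interior had the highest median −log10 q of the 12 interiors (range of the others 2.87 to 3.30) and the highest share of peaks at the score cap, 61.0% against 52.7% to 58.4%. Both kept that place when the peaks in the 180 kb from 9400000 on were left out, at 3.39 and 60.1%. One chromosome set against 11 allows no exact permutation p below 0.083, so that these places in the order are descriptions.

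Within classes of width, neither interior nor arm peaks were the stronger throughout. Among peaks of over 1000 and up to 2000 bp the median −log10 q was 6.96 in the interior and 6.85 in the arms. From 2000 to 5000 bp it was 11.1 and 10.5. In the class from 500 to 1000 bp, the most frequent in all 3 parts, the interior was lower, at 2.87 against 3.39. It was also lower above 5000 bp, at 12.1 against 12.8. On the other 11 chromosomes together the order above 5000 bp was the reverse, at 15.1 in the interiors and 14.3 in the arms. Strength rose steeply with width on the whole of chromosome 8, from medians of about 2.5 at 250 to 500 bp to over 12 at more than 5000 bp. The narrowest peaks, of up to 250 bp, were an exception, with a median of 2.84 in the interior and 2.85 in the arms. Their score was at the cap in 93.0% and 84.2%, against 44.1% and 44.3% from 250 to 500 bp. The product of score and width, divided by 1000, was never under 200.1 on this chromosome for a peak below the cap, so among the narrowest peaks the list holds only high scores.

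**Figure D2:**
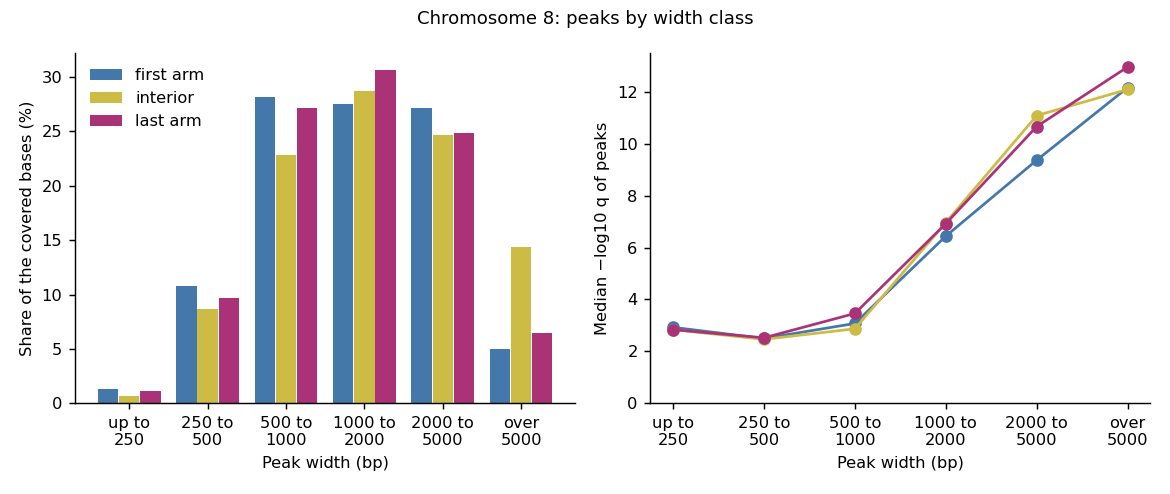
Share of the bases covered by peaks (left, in percent) and median −log10 q of peaks (right) by class of peak width in bp, for the first arm, the interior and the last arm of chromosome 8. Peaks of over 5000 bp made up 14.4% of the covered bases of the interior, against 4.96% and 6.44% in the arms, and median strength rose with width in all 3 parts above 500 bp.

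Very wide peaks were more numerous in the interior of chromosome 8 than in the other 11 interiors. Peaks of 5 kb or more numbered 71 on the chromosome, as many as on chromosomes 3 and 7, and 29 of them lay in the interior, where the other chromosomes had between 3 and 18. They were 1.92% of interior peaks, 0.72% of peaks in the first arm and 0.94% in the last arm. Peaks covered a larger share of this interior, 3.66%, than of any other (2.36% to 3.43%). The order in covered share rested on 1 place, and that in the number of wide peaks depended on how widely this place was drawn. Without the peaks in the 180 kb from 9400000 on, the covered share was 3.35%, rank 3 of the 12. The 20 wide peaks left were still the most of the 12 interiors, although as a share of peaks, 1.36%, they ranked 2, after 1.45% on chromosome 12. These 20 included 5 in the 180 kb just before that place and 1 in the 180 kb just after it. The interior of chromosome 12 had 18. The 5 widest peaks of the chromosome measured 33327, 19172 and 17630 bp, all in that place, and 12613 and 11797 bp in the last arm, where they began at 58536852 and 57820318.

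In the 180 kb from 9400000 on, the chromosome was almost continuously covered. This stretch held 39 peaks that covered 147.7 kb, or 82.1%. How reads with several positions and reads from organelles were handled is not given in the sources used here, and whether the sequence of this stretch is repeated in the genome or like organelle DNA was not tested. It is 0.39% of the length of the interior and had 2.59% of its peaks and 8.77% of its covered bases. The peaks had a median width of 1101 bp and a median −log10 q of 6.80, and 36 of the 39 were at the score cap. Immediately before, 180 kb held 30 peaks and were 32.7% covered, with 15 of the peaks at the cap. Immediately after, 180 kb held 9 peaks and were 6.13% covered. Coverage before the stretch was thus intermediate on average but uneven, with bins of 10 kb from 0% to 92.9% and the last of them at 83.0%. After the stretch it was low on average. The first 10 kb there were 67.5% covered, and 38.5 kb without a call began at 9587435.

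Windows of 180 kb, a length taken from this stretch, were laid every 20 kb over the 12 chromosomes to place it among the rest. Of the 38530 windows, the most covered was on chromosome 8 from 9380001 to 9560000, at 82.8%. The highest window of any other chromosome reached 60.5%, on chromosome 4, and the best windows of the remaining 10 lay between 50.2% and 59.9%. Only 10 windows passed 60%, and 8 of them touched this stretch. Windows laid every 20 kb overlap, so these 8 cover the same place again and are not separate places. The stretch was selected on the same peaks and also set the window length. Its place at the top is therefore a description and no support for its being unusual. Outside this stretch, the most covered window of chromosome 8 was close to the distal end, from 63800001 to 63980000, at 59.6%.

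**Figure D3:**
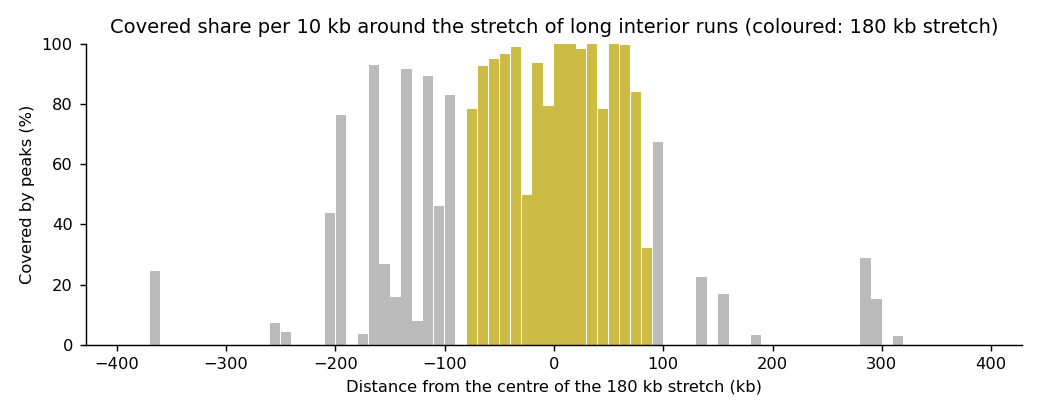
Share of each 10 kb covered by peaks, in percent, by distance in kb from the centre of the 180 kb stretch of long interior runs, with the stretch coloured and its surroundings in grey. Of its bins, 4 are covered to 100%, and coverage falls to 0 within 20 kb after the stretch.

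Near-continuous runs were formed by joining peaks over gaps of 500 bp or less, and those of 25 kb or more are described. The gaps nearest to the joining limit were of 498 and 501 bp. The shortest run kept was 25254 bp long, and the longest left out was 23231 bp, at 1700613 to 1723843 in the first arm. By this rule chromosome 8 had 5 runs, with 43 peaks and 183.7 kb, which is 39.8% of the 461.5 kb in the 13 runs of the 12 chromosomes. Of the other chromosomes, 5 had no such run, and none had more than 2. The 5 runs held 2.84% of the covered bases of chromosome 8.

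Of the 3 interior runs, the first reached from 9411996 to 9462322. It was 50.3 kb long, held 14 peaks and was 95.9% covered. Its 5 wide peaks measured 7546, 8816, 5093, 8525 and 11476 bp, with −log10 q of 11.7, 10.4, 12.1, 11.1 and 13.4. These values are close to each other, and the small peaks between them were weaker. Of these, 2 exceeded 1 kb, with 1218 bp (2.84) and 1519 bp (9.16). Its weakest peak, of 589 bp at 9432265, had a −log10 q of 1.35 and a score of 444, and 3 of its 14 peaks were below the cap.

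The second run, from 9484325 to 9535766, was the longest of the chromosome at 51.4 kb. It consisted of 3 peaks and was 99.7% covered, with 174 bases outside peaks. The first peak was 33327 bp wide and had a −log10 q of 18.3. The third was 17630 bp wide, with 12.6. Between them stood a peak of 311 bp with 2.69, set off by gaps of 76 and 98 bp. Over this whole length the calls were thus broken only by these 2 short gaps.

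The third run, from 9537833 to 9563086, began 2066 bp after the second had ended. It was 25.3 kb long, held 4 peaks and was 99.1% covered. Its main peak was 19172 bp wide with a −log10 q of 11.8, between peaks of 1526 bp (4.40) on one side and of 2328 bp (9.52) and 2012 bp (8.08) on the other. All 7 peaks of these last 2 runs were at the score cap.

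Shorter groups and single peaks took part of the space between and beyond these runs. The stretch had no peak before 9411996, and its last 10 kb were 32.1% covered. From 9467078 to 9479718, 7 peaks formed a group of 12.6 kb that was 97.0% covered, with a main peak of 6704 bp (11.7). Only 4755 bp separated it from the first run. After the third run, peaks of 2974 bp at 9564041 and of 2439 bp at 9567064 had −log10 q of 13.3 and 16.6, followed by 5 peaks of 263 to 1101 bp. The second of these was stronger than every peak of the stretch but the widest.

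The wide peaks of this stretch were within the range of strength of wide peaks elsewhere on chromosome 8. Its 9 peaks of 5 kb or more had −log10 q from 10.4 to 18.3 with a median of 11.8. The 20 elsewhere in the interior had a median of 12.9 (range 3.55 to 19.2), the 8 in the first arm 12.2 (8.03 to 20.2) and the 34 in the last arm 12.96 (5.02 to 20.9). The ranges overlapped throughout. The median of the stretch was the lowest of the 4, and its highest value was below that of the strongest peak of each part.

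**Figure D4:**
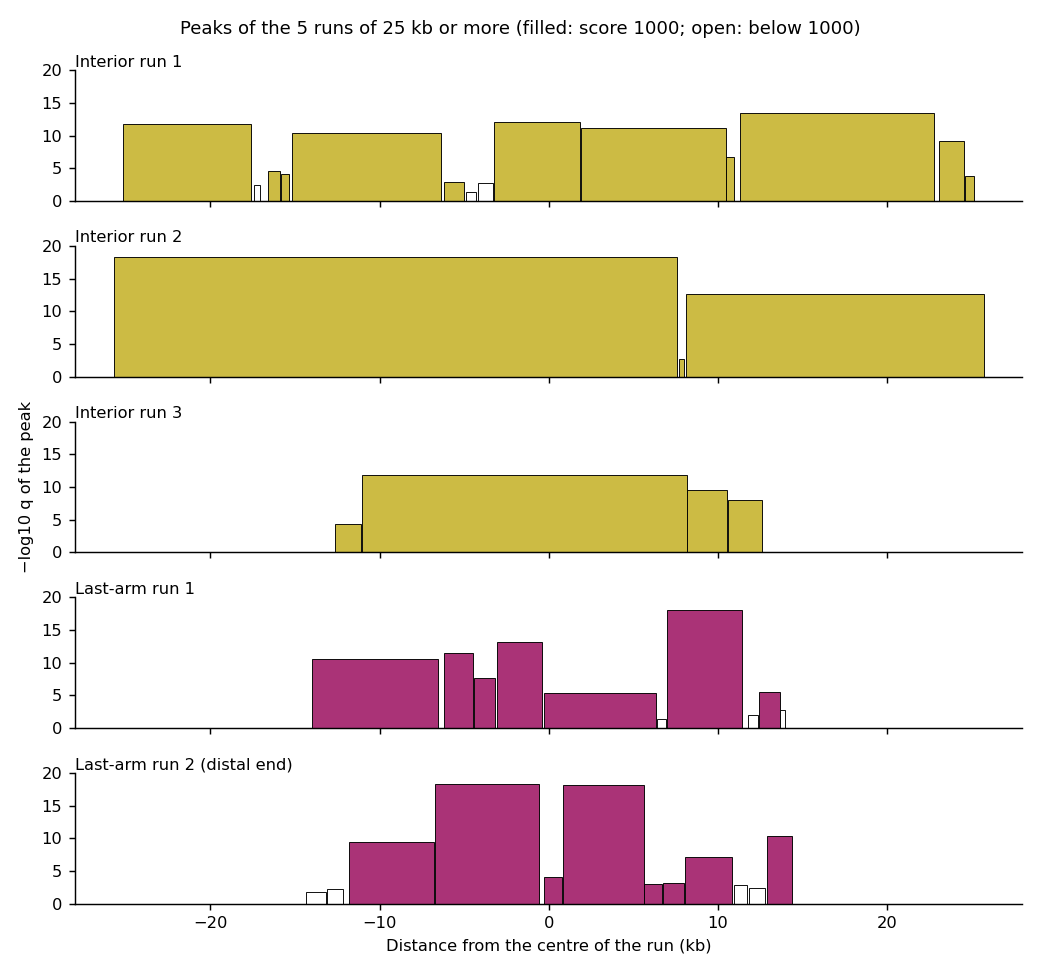
Peaks of the 5 runs of 25 kb or more, drawn to scale by distance in kb from the centre of each run, with the −log10 q of a peak as its height; filled peaks have a score of 1000 and open peaks a lower one. The interior runs 2 and 3 consist of 3 and 4 peaks with a widest of 33327 and 19172 bp, and the last-arm runs of 10 and 12 peaks of up to 7412 bp.

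In the last arm, 1 of 2 long runs reached from 60014718 to 60042656. It was 27.9 kb long, held 10 peaks and was 95.8% covered. Its 3 widest peaks, of 7412, 6673 and 4433 bp, had −log10 q of 10.6, 5.31 and 18.0. Others over 1 kb were of 1682, 1252, 2695 and 1250 bp, with 11.5, 7.68, 13.2 and 5.45. The strongest peak was thus not the widest one, and 3 peaks of 274 to 577 bp were below the score cap.

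The other lay at the distal end, from 63956844 to 63985600, and ended 2296 bp before the end of the last peak of the chromosome. It was 28.8 kb long, held 12 peaks and was 95.6% covered. Peaks of 6100 and 4771 bp in its centre had −log10 q of 18.2 and 18.1. On their left stood a peak of 5045 bp (9.49), and on their right peaks of 2801 bp (7.20) and 1507 bp (10.3). Peaks of 1221, 1067, 1052 and 1216 bp had values of 1.77, 4.02, 2.97 and 3.12. Only 2 further peaks followed this run, of 633 and 453 bp.

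The interior runs 2 and 3 were less divided than those of the last arm. They held 0.58 and 1.58 peaks per 10 kb, and the first interior run 2.78, whereas the runs in the last arm held 3.58 and 4.17. Over the 27 regions of 10 kb or more in the last arm, the number ran from 2.20 to 9.55 per 10 kb, with a median of 4.74. The 7 such regions of the first arm had between 1.67 and 6.95, with a median of 4.01. The shorter group of the stretch, at 9467078 to 9479718, had 5.54. In the 7 interior regions of 10 kb or more outside the stretch the number was between 1.96 and 5.51, with a median of 4.71. No interior run outside the stretch reached 25 kb, as these 7 regions measured between 10181 and 13940 bp.

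By count, regions of 10 kb or more were divided among the 3 parts much as all joined regions were. There were 45 on the chromosome, 7 in the first arm, 11 in the interior and 27 in the last arm, or 1.13%, 1.20% and 1.34% of the joined regions there. Of the 11 in the interior, 4 lay in the stretch of near-continuous coverage and 7 elsewhere. Among these 7, the regions from 9319632 to 9329909 and from 9350790 to 9361251 lay shortly before that stretch. The share in the interior thus rested largely on this neighbourhood, and within the interior the regions were not evenly spread. Within 6 Mb of the last peak lay 18 of the 45 (40.0%), beside 30.9% of all joined regions of the chromosome. Their strongest peaks had a −log10 q between 6.21 and 20.9. The 23231 bp region of the first arm was the longest after the 5 runs. It was followed by regions at 59429739 to 59452141 (22.4 kb, 5 peaks, 20.9) and at 63519734 to 63540812 (21.1 kb, 10 peaks, 16.2). With 45 such regions chromosome 8 shared sixth place among the 12, whereas its 5 runs of 25 kb or more were the most on any of the 12. Of these 5 runs, 3 lay close together in the interior and are not separate places.

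The last Mb of the chromosome held 343 peaks and was 41.6% covered. That was the most of the 12 chromosomes, of which the others had between 25.5% and 40.2%. In number of peaks it ranked 3 of 12. Its median peak was 805 bp wide, with a median −log10 q of 4.01, and 9 peaks reached 5 kb. The last 100 kb were 70.3% covered, against 0.79% to 52.7% on the other chromosomes, with the distal run as part of it. Ends are counted from the last peak, because the list gives no chromosome lengths. The first Mb, by contrast, was 28.4% covered, eighth of the 12, with 1 peak of 5 kb or more wholly inside it. A further peak, of 9259 bp, began at 993785 and ran past its end.

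**Figure D5:**
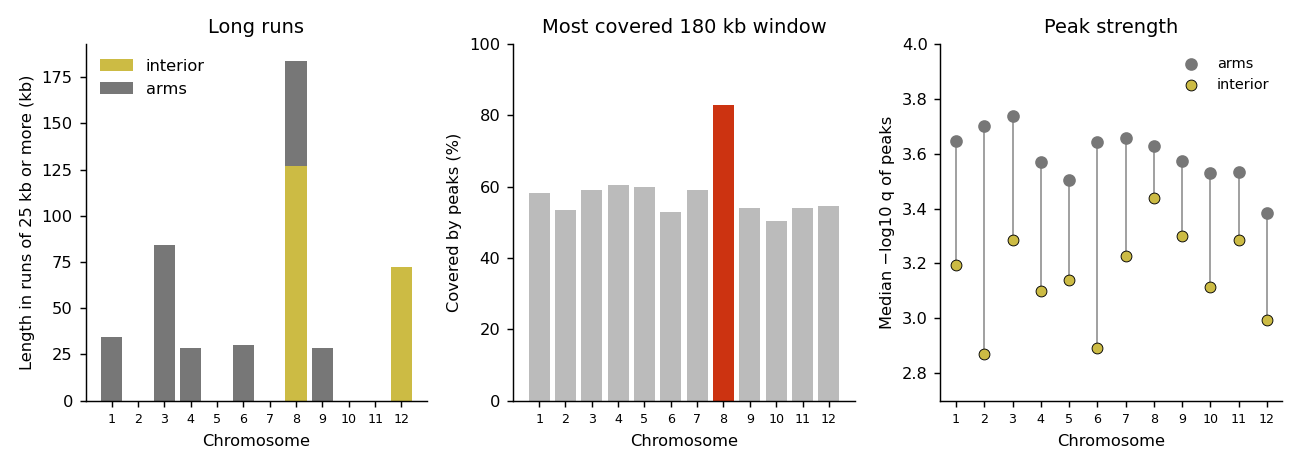
For each of the 12 chromosomes, the length in kb within runs of 25 kb or more, split into interior and arms (left), the covered share in percent of its most covered 180 kb window (middle, chromosome 8 in red), and the median −log10 q of peaks in the arms and in the interior (right, axis not from 0). Chromosome 8 has 183.7 kb in long runs, of which 127.0 kb in the interior, and the highest window at 82.8%.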

How the data were processed

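Per the labels' protocols, nuclei from 1 g of inflorescence per replicate were treated with the Nextera transposase and sequenced as paired reads on a MiSeq. Genrich 0.6, BWA, Trimmomatic, SAMtools, Picard and bedtools are listed, with no roles, in the submitters' processing notes. The single peak list deposited by the authors gives a score per peak, capped at 1000, and a −log10 q value inside the peak's name. Its chromosome names carry the build, SL4.0. The name of the list itself carries Genrich, q 0.5 and g 30. The shortest gap between peaks on chromosome 8 was 31 bp. How duplicates, reads with several positions and organelle reads were handled is not given in the sources used here, so absence of a peak is absence of a call.

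Positions are 1-based. A peak belongs to the bin, arm or interior that holds its midpoint. Peaks of 1 list are not replicates, so counts, medians and binomial or Poisson intervals are given without tests. The members, parts and runs were chosen with earlier results of these data known. Positions named are all runs of 25 kb or more with their peaks of 1 kb or more, the 5 strongest peaks of each part, the 5 widest, the 3 longest stretches without a call and the densest bins; other positions were chosen after their values were seen. Gene positions of another tomato assembly were not carried over and no SL4.0 sequence was used, so no genes or sequences are given. The search for the interior and the joining of peaks were tested on simulated data. Analyses ran in Python 3.11.15 with scipy 1.17.1, pandas 2.3.3 and numpy 2.4.6, and figures in matplotlib 3.10.9.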

Additional observations from a re-analysis of the deposited data

How the results depend on the processing

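The number of peaks on chromosome 8 stayed within 4860 and 6245 under limits on q of 0.05 and 0.01 and with gaps of up to 100 bp merged. The interior held 22.2% of the peaks when set from 500 kb bins and 22.5% when set against the mean of chromosome 8 alone. Its share of covered bases, 26.7%, became 24.96% and 25.4% in these settings and 24.96% without the peaks of the 180 kb from 9400000 on. With a q at or below 0.01, median widths rose to 825 bp in the interior and 755 bp in the arms, median −log10 q to 4.24 and 4.35, and median gaps to 1918 and 927 bp. With gaps of up to 100 bp merged these were 838 and 821 bp, 3.83 and 4.06, and 2416 and 1193 bp; both limits remove weak peaks or short gaps by construction. In each of these settings interior peaks had a larger median width and gap and a lower median −log10 q than those of both arms together.

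Of long runs there were 5, against 2 with joining over 100 bp, both in that stretch, 5 over 1000 bp and 4 with a q at or below 0.01. With all peaks joined over 500 bp, there were 8 runs at a minimum of 20 kb and 2 at 30 kb. These minimum lengths, the omission of the stretch and the settings for covered bases were chosen after the data were examined. No replicate could be left out and no paired analysis was possible because the list does not separate the replicates. Depth per sample is unknown.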
